A study of Homo sapiens with 8 samples.

Results

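The response of HT29 cells to YB-0158 at 0.3 µM was described as the difference between 2 YB-0158 libraries and 2 libraries of the DMSO vehicle (0.1%), which are 4 of the 8 libraries of the series, chosen by their titles. HT29 is an established human colorectal adenocarcinoma line, and the labels give 48 h of exposure for these 4 libraries. The other 4 libraries came from HT29 cells given ICG-001 at 10 µM or CWP232228 at 1.5 µM, with 2 libraries each, for 48 h and, for the replicate numbered 2 of each, 49 h. They entered the fitted model and the direct comparisons between compounds. All cells came from 1 line, and the labels do not say whether the libraries came from separate cultures, so the spread behind every p-value is that of these libraries and may be technical.

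The series calls the 3 compounds reverse-turn peptidomimetics, small molecules that imitate a bend in a protein chain. ICG-001 is known to bind the coactivator CREBBP, which works with beta-catenin at Wnt target genes, and YB-0158 is known as a compound directed at SAM68 (gene KHDRBS1), an RNA-binding protein of the STAR family. In the integrated stress response, kinases that sense amino acid shortage, misfolded protein, double-stranded RNA or heme shortage phosphorylate the initiation factor eIF2 alpha. General translation then falls while the transcription factor ATF4 is translated more, and ATF4 raises genes of amino acid uptake and synthesis. In colorectal epithelium the Wnt pathway maintains stem cells, and most colorectal tumours carry an active form of it.

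Total estimated reads were 29071547 and 29779369 in the DMSO libraries and 58489118 and 39964987 in the YB-0158 libraries. Values are given as CPM (counts per 1e6 counts), with library 1 before library 2. The DMSO libraries lay further apart than the others: the log2 difference between replicates had an SD of 0.31 across 10181 genes for DMSO and of 0.13 for YB-0158. The fit shares 1 spread per gene between the groups, so p-values against DMSO may be too small. The fold changes followed the GC content of the genes (Spearman rho = -0.38 across genes, which are not independent replicates), so group medians that a correction for GC content and length moved by over 1.5 times are given with the corrected value. The epithelial marker EPCAM stood at 473 and 473 CPM with DMSO and 599 and 635 CPM with YB-0158. Of the 15 colorectal epithelial identity genes, EPCAM among them, 6 were called higher and 7 lower by the test given below. Their median log2 fold change was -0.19, or 0.06 with GC content and length corrected. Their sum was 15900 and 17700 CPM with DMSO and 14100 and 14200 CPM with YB-0158. Of 11 fibroblast, 15 leukocyte, 10 endothelial and 14 neuronal marker genes, 3, 5, 3 and 3 reached the level needed for a test. Summed over each list, the DMSO libraries held 6.48 to 6.69 and the YB-0158 libraries 5.97 to 6.60 CPM of the fibroblast markers, 65.6 to 69.9 and 96.2 to 97.1 CPM of the endothelial ones, and 81.2 to 90.9 and 61.0 to 62.8 CPM of the neuronal ones. The endothelial sum was mostly ESAM, at 62.5 and 67.7 CPM with DMSO and 95.6 and 94.8 CPM with YB-0158. PECAM1 and TEK were lower with YB-0158. ENO2 and TUBB3, both lower with YB-0158, made up most of the neuronal sum. The leukocyte sums, 2780 to 2810 and 2570 to 2610 CPM, come almost wholly from LYZ, which epithelial cells also express. PTPRC, a marker of leukocytes in general, and the T cell genes CD3D and CD3E were at 0 in all 4 libraries. So were KDR and CLDN5, which define endothelium, and the collagen gene COL1A2. The leukocyte markers CD4, CD14, CD68 and ITGAM lay between 1.69 and 8.83 CPM. LUM (2.26 on the log2 scale) and MAP2 (2.27) were the fibroblast and neuronal markers that rose, both to under 5 CPM. In each of these lists 2 genes were called lower.

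Of 16449 genes tested, 7209 (43.8%) differed between YB-0158 and DMSO at an adjusted p under 0.05 (edgeR's quasi-likelihood test with Benjamini-Hochberg adjustment, used for all gene-level values), with 3575 higher (21.7%) and 3634 lower (22.1%). Gene lists with shares near these are described through their members and not as groups. The median log2 fold change over all genes was 0.02. A change of at least 1 on the log2 scale was found for 906 genes that rose and 671 that fell, and of at least 2 for 206 and 91. The YB-0158 and DMSO libraries did not overlap for any of the 7209 called genes, nor for 12037 genes (73.2%) in all. Without YB-0158 library 1 the count was 4436, and without YB-0158 library 2 it was 4237. With GC content and length corrected 7144 genes were called, 5007 of them among the 7209 and in the same direction, while 75 were called in the opposite direction. In bulk RNA, a change in the RNA of every cell and a change in the share of cells that make it cannot be told apart. By type, 23% of protein-coding genes were higher and 25.4% lower, while among 1990 long noncoding genes 15.8% were higher and 9.25% lower.

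The genes with the largest rises had little RNA in the vehicle. UNC5B, a netrin receptor on chromosome 10 (71212570 to 71302864 on GRCh38), stood at 0.626 and 0.919 CPM with DMSO and 24.4 and 25.2 CPM with YB-0158 (log2 fold change 5.0, SE 0.16, adjusted p = 1.9e-06). ULBP1, a stress-induced protein that natural killer cells sense through NKG2D, encoded on chromosome 6 (149964007 to 149973710), stood at 1.77 and 0.919 CPM with DMSO and 24.8 and 25.3 CPM with YB-0158 (log2 fold change 4.21, SE 0.23, adjusted p = 1.6e-05). The YB-0158 libraries lay close together for both genes, far above either DMSO library. CHAC1, a glutathione-degrading enzyme that is a marker of the stress response, rose from 6.08 and 5.73 CPM to 77.9 and 73.3 CPM (log2 fold change 3.68, SE 0.14, adjusted p = 2.1e-06). The pancreatic-type trypsinogens PRSS1 and PRSS2, neighbours on chromosome 7, stood at 3.79 and 4.81 CPM with DMSO and 63.1 and 63.1 CPM with YB-0158 for PRSS1 and 2.75 and 3.68 CPM with DMSO and 50.01 and 46.8 CPM with YB-0158 for PRSS2. These paralogs are near identical, so the division of reads between them is uncertain. The glycine transporter SLC6A9 (4.82) and the chloride channel BEST1 (4.35) were also among the 12 largest rises, as was the long noncoding RNA LINC01133 at 0.0348 and 0.106 CPM with DMSO and 12.3 and 11.2 CPM with YB-0158.

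Some of the largest rises are uncertain. EIF4EP2, a processed pseudogene, had no read in either DMSO library and 9.30 and 19.2 CPM with YB-0158, at least 135-fold higher against a floor of 3 counts per library. The readthrough IFNAR2-IL10RB, also without a DMSO read, was at least 68.0-fold higher. Both share sequence with other genes. ERCC6L2 rose by 4.27, but its summed reads held 0.16 of the mean in the authors' deposited table, which puts its log2 fold change at 0.94. For NEBL, at 3.61 here with 0.37 of that mean, the authors' deposited table gives 2.90.

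The genes with the largest falls include metabolic and hypoxia-linked genes. FABP1, a fatty acid carrier of enterocytes, stood at 11.8 and 28.1 CPM with DMSO and 0.992 and 0.461 CPM with YB-0158 (log2 fold change -4.72, SE 0.53, adjusted p = 0.00088), with the DMSO libraries far apart and the value at -3.98 without DMSO library 2 and -5.43 without YB-0158 library 1. The hypoxia-induced carbonic anhydrase CA9 stood at 136 and 207 CPM with DMSO and 30.7 and 28.2 CPM with YB-0158 (log2 fold change -2.54, SE 0.19, adjusted p = 0.00012). REG4, a secreted lectin of goblet and enteroendocrine cells, stood at 47.4 and 62.3 CPM with DMSO and 13.5 and 11.7 CPM with YB-0158 (log2 fold change -2.12, SE 0.14, adjusted p = 3e-05). Also among the 12 largest falls were NDUFA4L2 (-3.55), NDRG1 (-2.70), the small GTPase RASL11A (-2.68), the aldolase ALDOC (-2.50), the odorant receptor family member OR51E1 (-2.34), the monoamine transporter SLC29A4 (-2.33) and APLP1 (-2.11, with 0.45 of the authors' deposited mean). NDUFA4L2 was at -2.85 without DMSO library 2 and at -2.96 once GC content and length were corrected.

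**Figure D1:**
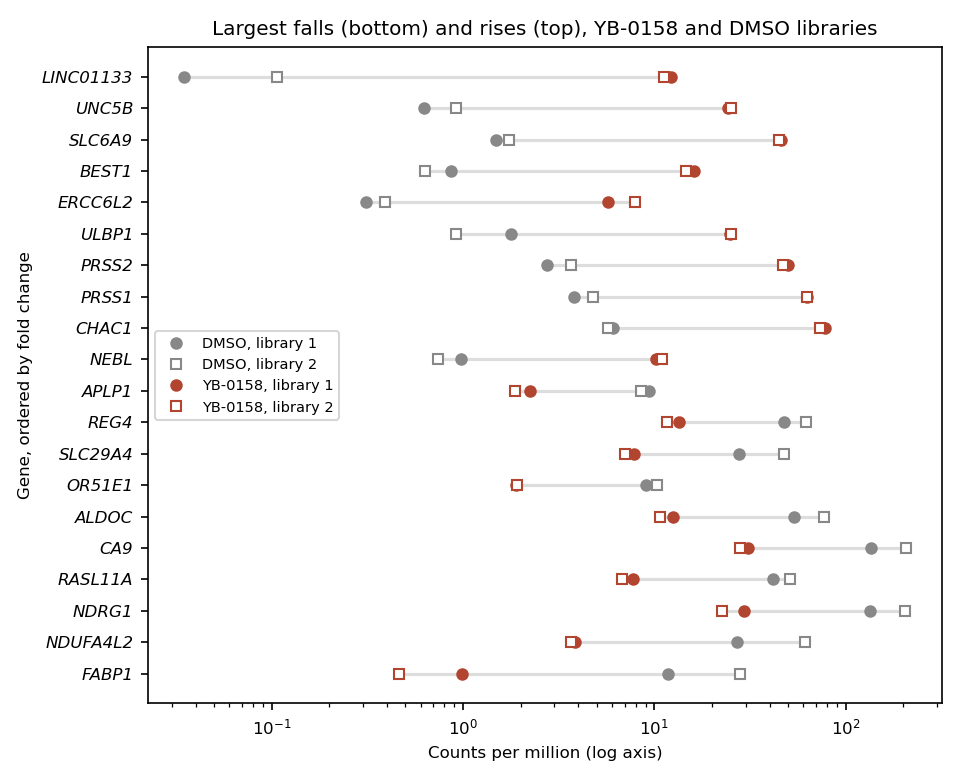
CPM on a log axis for 20 of the genes with the largest rises (top) and falls (bottom), with 1 point per library, grey for DMSO and red for YB-0158; 2 genes with no DMSO read are not drawn. The red pair lies apart from the grey pair for every gene drawn, which the rule that chose these genes required. For UNC5B the DMSO libraries sit at 0.626 and 0.919 CPM and the YB-0158 libraries at 24.4 and 25.2 CPM.

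Genes raised by ATF4 rose nearly as a whole. Of 33 ATF4 and stress response genes tested, 30 were higher and 1 lower, with a median log2 fold change of 1.70 against 0.02 over all genes. ATF4 mRNA itself was not called, at 373 and 443 CPM with DMSO and 445 and 421 CPM with YB-0158 (log2 fold change 0.08, SE 0.09, adjusted p = 0.46). The transcription factor DDIT3 (CHOP) stood at 9.42 and 13.9 CPM with DMSO and 44.2 and 41.6 CPM with YB-0158 (log2 fold change 1.88, SE 0.16, adjusted p = 8.2e-05). TRIB3, a pseudokinase that holds back ATF4, stood at 82.0 and 95.3 CPM with DMSO and 429.8 and 419 CPM with YB-0158 (log2 fold change 2.26, SE 0.11, adjusted p = 6.8e-06). NIBAN1, a stress-induced survival protein, stood at 7.44 and 5.73 CPM with DMSO and 71.8 and 74.3 CPM with YB-0158 (log2 fold change 3.47, SE 0.12, adjusted p = 1.9e-06). The member that was lower was ATF5, at 49.9 and 48.3 CPM with DMSO and 41.2 and 42.3 CPM with YB-0158 (log2 fold change -0.23, SE 0.08, adjusted p = 0.049), a call that ended without DMSO library 1 and without either YB-0158 library. The eIF2 alpha kinase genes themselves were not called: the ER-stress kinase EIF2AK3 (PERK) was at 0.81 (adjusted p = 0.11, and 1.46 without DMSO library 1), the heme-sensing EIF2AK1 at 0.06 (adjusted p = 0.54), the amino-acid-sensing EIF2AK4 (GCN2) at 0.08 (adjusted p = 0.57) and the RNA-sensing EIF2AK2 (PKR) at 0.42 (adjusted p = 0.097). With GC content and length corrected, EIF2AK4 and EIF2AK2 were called lower, at -0.25 and -0.19. The phosphatase subunit PPP1R15A (GADD34), which reverses the phosphorylation, rose by 0.77 (adjusted p = 0.00065).

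The promoters of the ATF4 list were searched, on both strands, for TGATGNAA, the letters of a C/EBP-ATF response element, in the RefSeq windows (GRCh38.p14) from 250 bases before to 50 bases after each annotated start. Windows were found for 28 of 35 members, and 7 (25%) held a match, against 4.5% of all 27305 genes in the table. CHAC1 is the list's reference gene with a match, and its window at chr15:40953221-40953520 (plus strand) is printed whole with the match, which lies on the other strand and starts 209 bases before the start site, in capitals. For ASNS, the asparagine synthetase (chr7:97872443-97872502, minus strand), CEBPG, a partner of ATF4 (chr19:33374045-33374104, plus strand), and ATF3 (chr1:212565190-212565249, plus strand), stretches around the match are shown for comparison of the element, with capitals again marking the match. These 3 were chosen after the matches were seen. A match is a run of letters and not evidence of binding. The search used reference sequences and a list of genes already linked with ATF4 or the stress response. The share with a match is therefore no measure of the response to YB-0158, here or for the lists below.
CHAC1: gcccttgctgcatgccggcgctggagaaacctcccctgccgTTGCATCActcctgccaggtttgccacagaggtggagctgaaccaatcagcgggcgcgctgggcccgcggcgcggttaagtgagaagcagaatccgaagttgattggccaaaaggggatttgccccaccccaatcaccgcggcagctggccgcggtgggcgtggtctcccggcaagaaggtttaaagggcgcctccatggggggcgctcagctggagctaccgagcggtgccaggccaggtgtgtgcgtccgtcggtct
ASNS: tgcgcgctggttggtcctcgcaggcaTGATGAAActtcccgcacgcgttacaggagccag
CEBPG: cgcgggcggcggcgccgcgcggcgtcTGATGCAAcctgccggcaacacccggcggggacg
ATF3: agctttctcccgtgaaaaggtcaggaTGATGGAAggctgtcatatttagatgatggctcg
In the same libraries, ASNS stood at 66.4 and 68.8 CPM with DMSO and 368 and 417 CPM with YB-0158 (log2 fold change 2.54, SE 0.09, adjusted p = 2.1e-06), ATF3 rose by 1.60 and CEBPG by 1.36 on the log2 scale, the CEBPG call ending without DMSO library 2.

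Enzymes and carriers of amino acids, some of which are also in the ATF4 list, held more rises than falls. Of 22 enzymes of serine, asparagine and 1-carbon metabolism, 12 were higher and 6 lower (median 0.45, corrected for GC content and length 0.71). The serine synthesis enzyme PHGDH stood at 70.6 and 78.4 CPM with DMSO and 156 and 154 CPM with YB-0158 (log2 fold change 1.05, SE 0.08, adjusted p = 5.2e-05), and the next enzyme of that pathway, PSAT1, rose by 2.56. Within the 1-carbon pathway the mitochondrial enzymes MTHFD2 (1.64) and MTHFD1L (1.53) rose, and the cytosolic SHMT1 (-1.11) and ALDH1L1 (-1.09) and the thymidylate synthase TYMS (-0.88) fell, with adjusted p from 6.8e-06 to 0.00012. Of 26 amino acid transporters, 11 were higher, 5 lower and 10 not called (median 0.33, corrected 0.16, and 0.13 without DMSO library 2). SLC7A5, the large neutral amino acid exchanger, stood at 237 and 232 CPM with DMSO and 1114 and 1137 CPM with YB-0158 (log2 fold change 2.26, SE 0.10, adjusted p = 5e-06), and its partner chain SLC3A2 rose by 1.63. The cystine importer SLC7A11 stood at 46.0 and 25.5 CPM with DMSO and 179.6 and 194 CPM with YB-0158 (log2 fold change 2.39, SE 0.25, adjusted p = 0.00068), and at 1.76 once GC content and length were corrected. The taurine transporter SLC6A6 (-0.86) fell. The amino acid transporters had 2 lower without YB-0158 library 1.

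Aminoacyl-tRNA synthetases, which charge tRNAs, were counted by compartment. Of 20 cytosolic synthetases 14 were higher and 3 lower (median 0.84), and of 17 mitochondrial ones 1 was higher and 6 lower (median -0.10). The tryptophan enzyme WARS1 stood at 100 and 97.5 CPM with DMSO and 324 and 323 CPM with YB-0158 (log2 fold change 1.71, SE 0.06, adjusted p = 2.1e-06), and the isoleucine and glutamate-proline enzymes IARS1 and EPRS1 rose by 1.51 and 1.41. Against them, the glutamine enzyme QARS1 stood at 265 and 315 CPM with DMSO and 174 and 170.4 CPM with YB-0158 (log2 fold change -0.75, SE 0.09, adjusted p = 0.00038), and FARSA (-0.59) and VARS1 (-0.28) were the other cytosolic synthetases called lower. Neither was called with GC content and length corrected (-0.21 and -0.03). VARS1 was also not called without YB-0158 library 1 or without library 2. Among the mitochondrial enzymes SARS2 (-0.78) and FARS2 (-0.79) fell, and HARS2 (0.29) was the member called higher, a call that ended without either YB-0158 library. The mitochondrial synthetases had 3 lower without YB-0158 library 1 and 2 lower without YB-0158 library 2.

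**Figure D2:**
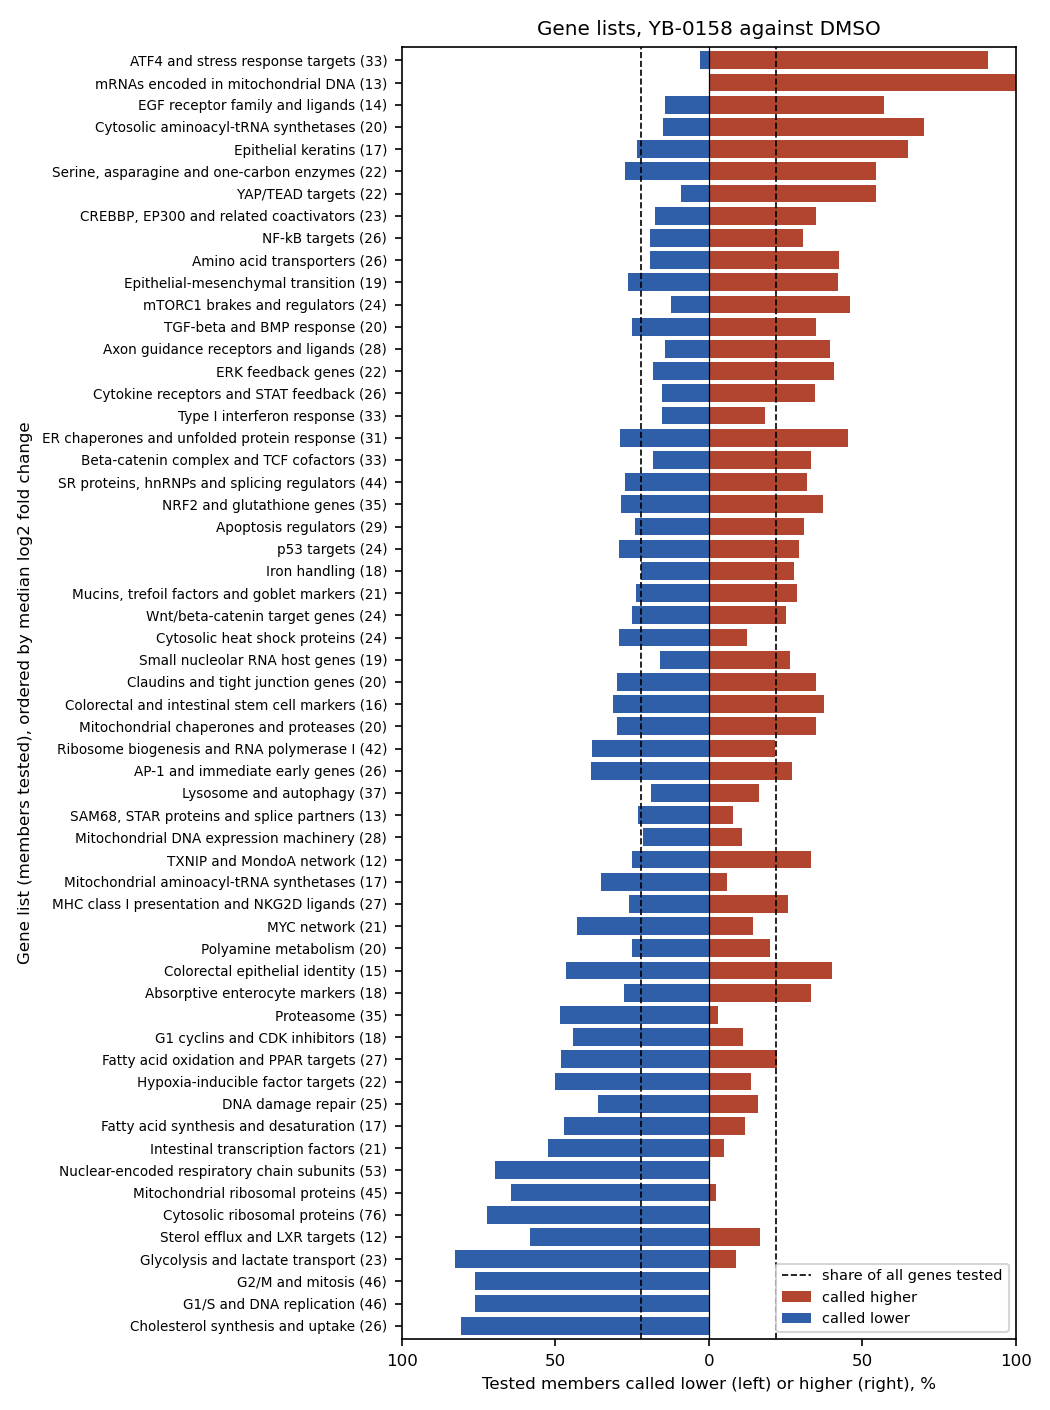
Share of tested members called higher (right) or lower (left) with YB-0158 against DMSO for gene lists with at least 12 tested members, ordered by the median log2 fold change, with dashed lines at the shares over all genes tested (21.7% higher and 22.1% lower). The ATF4 list (30 of 33 higher) and the mRNAs of mitochondrial DNA (13 of 13) stand at the top, and cholesterol synthesis (21 of 26 lower) at the bottom.

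RNA from the mitochondrial genome rose while nuclear genes for mitochondrial proteins mostly did not. All 13 mRNAs encoded in mitochondrial DNA were higher (median 1.58), and their share of the estimated reads was 0.903% and 1.404% in the DMSO libraries and 3.433% and 3.498% in the YB-0158 libraries. MT-ND2, a subunit of complex I, stood at 583 and 867 CPM with DMSO and 4489 and 4846 CPM with YB-0158 (log2 fold change 2.69, SE 0.18, adjusted p = 4.1e-05). MT-CO1, the catalytic subunit of complex IV, stood at 2004 and 3175 CPM with DMSO and 5086 and 5121 CPM with YB-0158 (log2 fold change 0.98, SE 0.19, adjusted p = 0.0047), and the groups do not overlap for either. Of 53 nuclear-encoded respiratory chain subunits, 0 were higher and 37 lower, with a median of -0.40 that was -0.20 once GC content and length were corrected (25 lower). The complex I subunit NDUFB7 stood at 55.8 and 58.8 CPM with DMSO and 26.5 and 27.5 CPM with YB-0158 (log2 fold change -1.09, SE 0.10, adjusted p = 0.00013, corrected -0.48). Of 45 mitochondrial ribosomal protein genes 29 were lower and 1, MRPS10 (0.50), higher (median -0.40, corrected -0.22). MRPS10 was not called without YB-0158 library 2.

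The genes for proteins that copy and read mitochondrial DNA did not move as a group: of 28 genes 3 were higher and 6 lower. The mitochondrial RNA polymerase POLRMT stood at 75.6 and 75.7 CPM with DMSO and 46.4 and 44.5 CPM with YB-0158 (log2 fold change -0.73, SE 0.08, adjusted p = 0.00023). LRPPRC, which stabilises mitochondrial mRNAs, rose by 0.61 (adjusted p = 0.003), and the DNA-packaging factor TFAM was not called (-0.03, adjusted p = 0.88). Among 20 mitochondrial chaperones and proteases, 7 higher and 6 lower, the chaperone HSPA9 (mortalin) stood at 343 and 358 CPM with DMSO and 731 and 745 CPM with YB-0158 (log2 fold change 1.07, SE 0.07, adjusted p = 2.4e-05), and the protease LONP1 rose by 0.63. HSPD1 (HSP60), a classical marker of the mitochondrial unfolded protein response, was not called (0.11, adjusted p = 0.27). The chaperone list had 4 higher without YB-0158 library 2.

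Cytosolic ribosomal protein genes fell, by an amount that depended on the correction. Of 76 tested, 55 were lower and 0 higher, with a median of -0.44. With GC content and length corrected 35 were lower and 4 higher, with a median of -0.15. RPS9 stood at 860.2 and 1074 CPM with DMSO and 464 and 451 CPM with YB-0158 (log2 fold change -1.08, SE 0.10, adjusted p = 0.00014, corrected -0.55) and RPL3 at 2399.5 and 2939 CPM with DMSO and 1416 and 1408 CPM with YB-0158 (log2 fold change -0.92, SE 0.10, adjusted p = 0.00025, corrected -0.55). The ribosomal protein list had 27 lower without YB-0158 library 2. Of 42 ribosome biogenesis genes 9 were higher and 16 lower. RNA polymerase I and its initiation factor were called higher, POLR1A at 0.72 and RRN3 at 0.81, which were 0.22 and 0.54 once GC content and length were corrected. The authors' deposited table puts POLR1A at 0.04 (adjusted p = 0.92). In the same list the pre-rRNA processing genes NHP2 (-0.68), RRP1 (-0.72) and NOC2L (-0.58) fell. The biogenesis list had 5 higher without YB-0158 library 2, 10 lower without YB-0158 library 1 and 9 lower without YB-0158 library 2. GAS5, a noncoding host of small nucleolar RNAs whose spliced RNA accumulates when translation slows, stood at 175 and 235 CPM with DMSO and 329 and 314 CPM with YB-0158 (log2 fold change 0.65, SE 0.12, adjusted p = 0.0041), and SNHG32 rose by 1.11, within a list of 19 host genes of which 5 were higher and 3 lower. The host gene list had 3 higher without YB-0158 library 1, 3 higher without YB-0158 library 2 and 8 higher with GC content and length corrected.

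Sterol and fatty acid synthesis genes, which the SREBP transcription factors control, fell. Of 26 genes of cholesterol synthesis and uptake 21 were lower and 0 higher (median -0.89). INSIG1, which holds SREBP in the endoplasmic reticulum, stood at 109.9 and 100 CPM with DMSO and 29.1 and 33.5 CPM with YB-0158 (log2 fold change -1.75, SE 0.11, adjusted p = 2.4e-05). The farnesyl diphosphate synthase FDPS and the last enzyme DHCR7 fell by 1.35 and 1.15. SCD, the stearoyl-CoA desaturase, stood at 1925 and 1668 CPM with DMSO and 786 and 767 CPM with YB-0158 (log2 fold change -1.21, SE 0.09, adjusted p = 4.7e-05), and FASN (-0.89), ACSS2 (-1.12) and the regulator SREBF1 (-1.05) fell, among 17 fatty acid synthesis genes of which 8 were lower and 2 higher, FADS3 (0.41) and ME1 (0.55). FADS3 was not called without either YB-0158 library. The 9-letter SREBP motif TCACNCCAC was found in the promoter window of 1 of 20 cholesterol genes, SREBF2, against 1.4% of all genes.

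Genes of sterol efflux fell as well: of 12 LXR-linked genes 7 were lower and 2 higher, with the receptor NR1H3 (LXR alpha) at 73.7 and 91.3 CPM with DMSO and 41.8 and 41.6 CPM with YB-0158 (log2 fold change -0.98, SE 0.11, adjusted p = 0.00024). The exporter ABCA1 was not called (-0.46, adjusted p = 0.19, and -1.13 once GC content and length were corrected). The LXR list had 4 lower without YB-0158 library 2. Among 27 genes of fatty acid oxidation and PPAR targets 13 were lower and 6 higher. PLIN2, the lipid droplet coat protein, stood at 7.23 and 9.404 CPM with DMSO and 3.15 and 2.79 CPM with YB-0158 (log2 fold change -1.48, SE 0.16, adjusted p = 0.00026), and the acyl-CoA synthetase ACSL1 fell by 0.90. CPT1A, which admits fatty acids to the mitochondrion, was not called (0.13, adjusted p = 0.22). The oxidation list had 3 higher without DMSO library 2, 1 higher without YB-0158 library 1, 2 higher without YB-0158 library 2 and 3 higher with GC content and length corrected.

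Glycolysis genes fell in 19 of 23 tested, and 2, HK2 (0.48) and the lactate carrier SLC16A1 (0.36), were higher (median -0.60). Lactate dehydrogenase LDHA stood at 959.9 and 1094 CPM with DMSO and 478 and 498 CPM with YB-0158 (log2 fold change -1.07, SE 0.09, adjusted p = 8.7e-05), and the lactate exporter SLC16A3 fell by 1.14. SLC16A1 was not called without YB-0158 library 2 or with GC content and length corrected (0.05). The glucose transporter SLC2A1 was not called (-0.10, adjusted p = 0.37). Targets of hypoxia-inducible factor split: of 22, 11 were lower and 3 higher. The collagen-modifying enzyme PLOD2 stood at 51.4 and 51.4 CPM with DMSO and 22.9 and 25.4 CPM with YB-0158 (log2 fold change -1.09, SE 0.12, adjusted p = 0.00025) and the prolyl hydroxylase EGLN3 fell by 1.07. VEGFA, the angiogenic growth factor, went the other way, at 83.6 and 90.4 CPM with DMSO and 282 and 264 CPM with YB-0158 (log2 fold change 1.65, SE 0.08, adjusted p = 6.8e-06), as did CA12 (0.42). TXNIP, an arrestin-family brake on glucose uptake, stood at 191 and 188 CPM with DMSO and 275 and 271 CPM with YB-0158 (log2 fold change 0.52, SE 0.08, adjusted p = 0.0011), and ARRDC4, another glucose-responsive arrestin, rose by 1.32, from a list of 12 with 4 higher and 3 lower.

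Cell cycle genes fell in both phases listed. Of 46 G1/S and DNA replication genes 35 were lower and 0 higher (median -0.69), and of 46 G2/M and mitosis genes 35 were lower and 0 higher (median -0.66). The replicative helicase subunit MCM2 stood at 294 and 284 CPM with DMSO and 144 and 151 CPM with YB-0158 (log2 fold change -0.97, SE 0.07, adjusted p = 2.8e-05). Thymidine kinase TK1 and DNA ligase LIG1 fell by 1.38 and 1.37. The mitotic kinase PLK1 stood at 142 and 143 CPM with DMSO and 81.4 and 85.1 CPM with YB-0158 (log2 fold change -0.78, SE 0.07, adjusted p = 0.00014), and cyclin B1 (CCNB1), the ubiquitin-conjugating enzyme UBE2C and survivin (BIRC5) fell by 0.82, 1.09 and 1.15. Among 18 G1 cyclins and inhibitors, 2 higher and 8 lower, cyclin D1 (CCND1) stood at 147 and 124 CPM with DMSO and 177 and 183 CPM with YB-0158 (log2 fold change 0.41, SE 0.09, adjusted p = 0.0058) and the CDK4 inhibitor CDKN2B (p15) at 9.04 and 7.11 CPM with DMSO and 16.5 and 16.9 CPM with YB-0158 (log2 fold change 1.05, SE 0.13, adjusted p = 0.00055). CDKN1A (p21) and CDKN1B (p27) were not called (0.16 and -0.09, adjusted p = 0.19 and 0.5). Of 11 listed histone genes tested 8 fell, H2BC12 at -0.85 and H1-2 at -1.02 among them, and 1 was higher. H2BC12 was not called with GC content and length corrected (-0.36). The summed level of the list was 657 and 665 CPM with DMSO and 710 and 709 CPM with YB-0158. Most replication-dependent histone mRNAs lack a poly(A) tail, so how well they are recovered depends on the library preparation. With GC content and length corrected, 4 genes of the G1 cyclin list were higher and 5 lower, with a median of -0.09 against -0.23 uncorrected.

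Promoters of the 2 cell cycle lists held different letters. The CHR element TTTGAA, bound by the MuvB complexes that time mitotic genes, was found in 27 of 39 G2/M promoters (69.2%) and in 1 of 38 G1/S promoters (2.6%), against 18.2% of all genes. The E2F element TTTGGCGC was found in 8 of 38 G1/S promoters (21.1%) and 1 of 39 G2/M promoters (2.6%), against 0.8%. Both strands were searched. To show the elements, stretches around them follow for PLK1 (chr16:23678834-23678891, plus strand), CDK1, the kinase of mitotic entry (chr10:60778144-60778201, plus strand), the helicase subunit MCM6 (chr2:135876562-135876621, minus strand) and the replication licensing factor CDC6 (chr17:40287860-40287919, plus strand), with the element in capitals. MCM6 and CDC6 were chosen after the matches were seen.
PLK1: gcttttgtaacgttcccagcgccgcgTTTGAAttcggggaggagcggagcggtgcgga
CDK1: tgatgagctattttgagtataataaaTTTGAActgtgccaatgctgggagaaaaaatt
MCM6: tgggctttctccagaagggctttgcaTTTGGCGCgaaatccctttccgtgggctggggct
CDC6: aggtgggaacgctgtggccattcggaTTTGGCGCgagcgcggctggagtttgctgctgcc
Of these 4, CDK1 fell by 0.44 (adjusted p = 0.012), a call that ended without YB-0158 library 1, MCM6 was at -0.73 (adjusted p = 0.00032) and CDC6 at -0.07 (adjusted p = 0.6).

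Genes of p53 and apoptosis were called in each direction at shares not far from those over all genes. Of 24 p53 targets 7 were higher and 7 lower (29.2% each), and the higher ones with the smallest p, SESN2 at 25.1 and 25.0 CPM with DMSO and 89.1 and 85.7 CPM with YB-0158 (log2 fold change 1.80, SE 0.10, adjusted p = 1.3e-05), GDF15 (1.14) and the death receptor TNFRSF10B (0.61), are also in the ATF4 list. The p53 inhibitor MDM2 was not called (0.29, adjusted p = 0.3). HT29 is known to carry a mutant p53. Of 25 DNA repair genes 4 were higher and 9 lower. The recombination gene RAD54L stood at 28.0 and 29.4 CPM with DMSO and 15.5 and 17.4 CPM with YB-0158 (log2 fold change -0.81, SE 0.09, adjusted p = 0.00036) and the checkpoint kinase CHEK2 fell by 0.75, while the resection factor RBBP8 (CtIP) rose by 0.78. Of 29 apoptosis regulators 9 were higher (31%) and 7 lower (24.1%). The BH3-only gene PMAIP1 (NOXA), itself raised by ATF4, stood at 3.96 and 2.62 CPM with DMSO and 9.16 and 9.50 CPM with YB-0158 (log2 fold change 1.50, SE 0.18, adjusted p = 0.00039), BIRC3, an inhibitor of apoptosis, stood at 2.57 and 1.77 CPM with DMSO and 7.29 and 10.1 CPM with YB-0158 (log2 fold change 1.99, SE 0.22, adjusted p = 0.00027), and the death promoters BAD and BAK1 fell by 0.81 (corrected for GC content and length -0.22) and 0.53. The survival gene MCL1 was not called (0.10, adjusted p = 0.4). The p53 list had 3 lower without YB-0158 library 1 and 3 lower without YB-0158 library 2. The DNA repair list had 8 higher without DMSO library 1, 2 higher without YB-0158 library 2 and 4 lower without YB-0158 library 1. With GC content and length corrected, 17 DNA repair genes were lower.

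Wnt target genes split into rises and falls. Of 24 tested, 6 were higher and 6 lower, shares of 25% each that lie near those over all genes. AXIN2, a feedback scaffold of the pathway, stood at 65.2 and 57.7 CPM with DMSO and 112 and 113 CPM with YB-0158 (log2 fold change 0.88, SE 0.08, adjusted p = 0.00012), and the tight junction gene CLDN1 at 30.5 and 24.8 CPM with DMSO and 83.9 and 90.0 CPM with YB-0158 (log2 fold change 1.65, SE 0.11, adjusted p = 2.5e-05). On the other side the Wnt deacylase NOTUM stood at 2.12 and 2.44 CPM with DMSO and 0.418 and 0.512 CPM with YB-0158 (log2 fold change -2.30, SE 0.26, adjusted p = 0.00031), and the feedback repressor SP5 at 19.2 and 19.0 CPM with DMSO and 8.39 and 7.50 CPM with YB-0158 (log2 fold change -1.26, SE 0.11, adjusted p = 0.00011). The stem cell receptor LGR5 stood at 9.07 and 7.88 CPM with DMSO and 5.92 and 5.48 CPM with YB-0158 (log2 fold change -0.57, SE 0.13, adjusted p = 0.0076), a call that ended without YB-0158 library 2, and the stem cell factor ASCL2 was at -0.88, a call that ended with GC content and length corrected (-0.43). Of 33 beta-catenin complex members 11 were higher and 6 lower. The kinase CSNK1A1 rose by 0.71, WNT11 stood at 12.8 and 16.9 CPM with DMSO and 32.5 and 30.4 CPM with YB-0158 (log2 fold change 1.08, SE 0.13, adjusted p = 0.00039), and the corepressor TLE2 fell by 2.11 to 0.331 and 0.333 CPM. Beta-catenin (CTNNB1) was at 0.24 (adjusted p = 0.021), a call that ended without DMSO library 2, without either YB-0158 library and with GC content and length corrected (0.10). The beta-catenin list had 6 higher without YB-0158 library 1, 6 higher without YB-0158 library 2 and 3 lower without YB-0158 library 2.

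The genes of the proteins linked with these compounds moved little or upward. KHDRBS1 (SAM68) stood at 246 and 216 CPM with DMSO and 219 and 230.5 CPM with YB-0158 (log2 fold change -0.04, SE 0.08, adjusted p = 0.71), and was not called. CREBBP stood at 75.9 and 62.0 CPM with DMSO and 129 and 118 CPM with YB-0158 (log2 fold change 0.84, SE 0.11, adjusted p = 0.00059), while its paralog EP300 stood at 64.6 and 30.7 CPM with DMSO and 76.7 and 74.4 CPM with YB-0158 (log2 fold change 0.66, SE 0.31, adjusted p = 0.13), with DMSO libraries far apart, and was not called (1.31 without DMSO library 1). The coactivator NCOA3 rose by 1.00, and the acetyltransferase KAT2A and deacetylase HDAC1 fell by 0.57 and 0.56, in a list of 23 with 8 higher and 4 lower. The coactivator list had 5 higher without YB-0158 library 1. Among 13 STAR proteins and splice partners the tyrosine kinase FYN rose by 0.80, and HNRNPA1 and U2AF2 fell by 0.57 and 0.63. Of 44 SR proteins, hnRNPs and splicing regulators 14 were higher and 12 lower, with HNRNPH3 (0.65), HNRNPH1 (0.61) and RBM39 (0.48) up and SRSF2 (-0.46) and SRSF9 (-0.47) down. The splicing regulator list had 9 higher without YB-0158 library 1, 8 higher without YB-0158 library 2, 6 lower without YB-0158 library 1 and 5 lower without YB-0158 library 2.

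Among intestinal identity genes, the transcription factors were mostly lower. Of 21 intestinal transcription factors 11 were lower and 1, KLF4, higher (median -0.32). CDX2, the master regulator of intestinal fate, stood at 14.98 and 16.5 CPM with DMSO and 8.22 and 7.04 CPM with YB-0158 (log2 fold change -1.04, SE 0.12, adjusted p = 0.00034), HNF4A fell by 0.56, and the secretory lineage factor ATOH1 stood at 2.89 and 3.11 CPM with DMSO and 1.13 and 0.768 CPM with YB-0158 (log2 fold change -1.64, SE 0.30, adjusted p = 0.0031). KLF4 stood at 11.4 and 10.4 CPM with DMSO and 33.4 and 32.9 CPM with YB-0158 (log2 fold change 1.60, SE 0.10, adjusted p = 2.5e-05). The transcription factor list had 7 lower without YB-0158 library 2. Of 18 enterocyte markers 6 were higher (33.3%) and 5 lower (27.8%), shares not far from those over all genes. Keratin KRT20 stood at 245 and 290.3 CPM with DMSO and 433 and 427 CPM with YB-0158 (log2 fold change 0.68, SE 0.09, adjusted p = 0.00049) and the brush border cadherin CDHR5 rose by 0.92, while villin (VIL1) and carbonic anhydrase CA2 fell by 0.45 and 1.00. The enterocyte list had 8 lower without DMSO library 1. The gastric-type mucin MUC5AC stood at 61.8 and 44.5 CPM with DMSO and 288 and 231 CPM with YB-0158 (log2 fold change 2.29, SE 0.29, adjusted p = 0.0017), the membrane mucin MUC13 fell by 0.76, and 6 of 21 mucin and goblet genes were higher (28.6%) and 5 lower (23.8%), again near the shares over all genes. The mucin list had 2 lower without DMSO library 2, 3 lower without YB-0158 library 1, 2 lower without YB-0158 library 2 and 2 lower with GC content and length corrected.

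Of the CEACAM adhesion molecules and of the keratin and envelope genes, more were higher than lower. CEACAM6, an adhesion molecule of colorectal tumours, stood at 11.2 and 9.97 CPM with DMSO and 101 and 118 CPM with YB-0158 (log2 fold change 3.37, SE 0.12, adjusted p = 1.9e-06), CEACAM5 (CEA) at 4.59 and 4.17 CPM with DMSO and 27.0 and 30.0 CPM with YB-0158 (log2 fold change 2.70, SE 0.13, adjusted p = 6.8e-06) and CEACAM19 at 2.26 and 2.44 CPM with DMSO and 11.5 and 10.5 CPM with YB-0158 (log2 fold change 2.23, SE 0.14, adjusted p = 2.3e-05). CEACAM1 went down, at 185 and 169 CPM with DMSO and 112 and 111 CPM with YB-0158 (log2 fold change -0.66, SE 0.07, adjusted p = 0.00024). Of 5 CEACAM genes tested, 4 were higher and 1 lower. CEACAM7 (1.13), the other member called higher, was at 2.10 without DMSO library 2 and lost its call without DMSO library 1 and without either YB-0158 library. CEACAM family members share sequence, so a division of reads between them is uncertain. Of 17 keratin and envelope genes 11 were higher and 4 lower (median 0.59), while their summed level was 14000 and 15800 CPM with DMSO and 12200 and 12300 CPM with YB-0158. Sciellin (SCEL), a precursor of the cornified envelope, stood at 8.90 and 8.24 CPM with DMSO and 57.4 and 61.8 CPM with YB-0158 (log2 fold change 2.80, SE 0.10, adjusted p = 2.1e-06), and the squamous-type keratins KRT17 and KRT80 rose by 1.33 and 1.12, while KRT19 fell by 0.74. The keratin list had 2 lower without YB-0158 library 1, 2 lower without YB-0158 library 2 and 2 lower with GC content and length corrected. Of 20 claudin and tight junction genes 7 were higher and 6 lower (median 0.04, corrected for GC content and length 0.08). There the scaffold TJP1 rose by 0.88 and claudin CLDN2 fell by 1.10. The tight junction list had 4 higher without YB-0158 library 1 and 3 higher without YB-0158 library 2. E-cadherin (CDH1) rose by 0.46, and vimentin (VIM) was under 0.5 CPM in each of the 4 libraries. In the stem cell list ALDH1A3 rose from 10.4 and 8.03 CPM to 27.7 and 31.9 CPM, the chemokine receptor CXCR4 fell by 0.80, and CD44 and ALDH1A1 were not called (-0.18 and 0.06, adjusted p = 0.067 and 0.51).

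EGF receptor ligands and the receptor rose in part. Of 14 genes of the family 8 were higher and 2 lower (median 0.91, corrected for GC content and length 0.49). The ligand HBEGF stood at 14.2 and 14.9 CPM with DMSO and 36.5 and 35.3 CPM with YB-0158 (log2 fold change 1.3, SE 0.09, adjusted p = 2.6e-05), amphiregulin (AREG) at 85.6 and 87.1 CPM with DMSO and 170.4 and 194 CPM with YB-0158 (log2 fold change 1.08, SE 0.10, adjusted p = 0.0001), and the receptor EGFR at 99.2 and 65.7 CPM with DMSO and 168 and 163 CPM with YB-0158 (log2 fold change 1.00, SE 0.16, adjusted p = 0.0027, corrected for GC content and length 0.40). The feedback inhibitor ERRFI1 rose by 1.13. Among genes that ERK signalling raises, 9 of 22 were higher and 4 lower: the phosphatases DUSP4 and DUSP5 rose by 0.96 and 0.81, EGR1 fell by 0.52, and DUSP6 was not called (-0.23, adjusted p = 0.12). The ERK list had 2 lower without YB-0158 library 2. Among 26 AP-1 and immediate early genes, 7 higher and 10 lower, FOS and JUNB fell by 0.92 and 1.19 and FOSL2 rose by 0.82. The AP-1 list had 4 higher without YB-0158 library 1, 11 higher with GC content and length corrected and 6 lower without YB-0158 library 2. YAP/TEAD targets were higher in 12 of 22 and lower in 2, with MYOF at 72.5 and 57.2 CPM with DMSO and 188 and 188 CPM with YB-0158 (log2 fold change 1.53, SE 0.10, adjusted p = 2.9e-05) and AJUBA at 1.17, while the classical targets CCN2 and ANKRD1 were not called (0.30 and 0.38, adjusted p = 0.079 and 0.6, ANKRD1 at 1.06 without DMSO library 1).

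Among receptors and ligands toward immune cells, particular members changed by large amounts. The IL-20 receptor chain IL20RB stood at 2.82 and 3.25 CPM with DMSO and 35.9 and 35.6 CPM with YB-0158 (log2 fold change 3.56, SE 0.12, adjusted p = 1.9e-06), the IL-6 receptor IL6R at 3.93 and 3.36 CPM with DMSO and 17.1 and 17.9 CPM with YB-0158 (log2 fold change 2.26, SE 0.12, adjusted p = 1.3e-05), and IL17RB fell by 0.81, among 26 cytokine receptor and STAT feedback genes of which 9 were higher and 4 lower. Of 27 genes of class I presentation and NKG2D ligands 7 were higher and 7 lower. Beside ULBP1, the NKG2D ligand RAET1L rose by 1.29 and MICA was at -0.49 (adjusted p = 0.011), not called without YB-0158 library 2 or with GC content and length corrected (-0.21). Beta-2 microglobulin (B2M) rose by 0.43 and the loading chaperone calreticulin (CALR) stood at 693 and 803 CPM with DMSO and 356 and 363 CPM with YB-0158 (log2 fold change -1.06, SE 0.08, adjusted p = 5.3e-05). Of 33 type I interferon genes, 6 were higher (18.2%) and 5 lower (15.2%), not far from the shares over all genes (21.7% and 22.1%). With GC content and length corrected, 9 interferon genes were higher and 4 lower. The membrane restriction factor IFITM3 stood at 33.3 and 36.5 CPM with DMSO and 12.05 and 11.3 CPM with YB-0158 (log2 fold change -1.58, SE 0.10, adjusted p = 2.5e-05). NF-kB targets, 8 of 26 higher and 5 lower, included IL32 (1.28) upward and the complement factor CFB (-1.07) downward. The class I list had 4 lower with GC content and length corrected. The cytokine receptor list had 2 lower without YB-0158 library 1. The interferon list had 2 higher without YB-0158 library 1, 3 higher without YB-0158 library 2 and 3 lower without YB-0158 library 2. The NF-kB list had 4 higher without YB-0158 library 1, 5 higher without YB-0158 library 2 and 3 lower without YB-0158 library 2.

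Among TGF-beta and BMP genes, 7 of 20 higher and 5 lower, the mediator SMAD3 stood at 153 and 134 CPM with DMSO and 291 and 286 CPM with YB-0158 (log2 fold change 1.01, SE 0.08, adjusted p = 5.8e-05), the feedback genes PMEPA1 and SMAD7 rose by 0.83 and 0.70, and the ligand TGFB1 and the pseudoreceptor BAMBI fell by 0.62 and 1.12. INHBE, an activin chain known as a stress response gene, rose by 3.51 from 0.174 and 0.141 CPM. Besides UNC5B, the guidance genes NRP1, a semaphorin coreceptor, and NTN4, a netrin, rose by 1.51 and 1.33, and the ephrin EFNA1 fell by 0.68, in a list of 28 with 11 higher and 4 lower. The TGF-beta list had 11 higher without DMSO library 1, 3 lower without DMSO library 2, 3 lower without YB-0158 library 1, 3 lower without YB-0158 library 2 and 3 lower with GC content and length corrected. The guidance list had 1 lower without YB-0158 library 1, 1 lower without YB-0158 library 2 and 2 lower with GC content and length corrected.

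Among brakes and regulators of mTORC1, 11 of 24 were higher and 3 lower. DDIT4 (REDD1) stood at 53.6 and 54.6 CPM with DMSO and 192 and 183 CPM with YB-0158 (log2 fold change 1.79, SE 0.10, adjusted p = 1.6e-05), SESN2 is given above, and DEPTOR rose by 0.91. Of 37 autophagy and lysosome genes, 6 were higher (16.2%) and 7 lower (18.9%), not far from the shares over all genes (21.7% and 22.1%). Transcripts of the autophagosome genes MAP1LC3B and SQSTM1 (p62) rose by 1.02 and 0.67. Those of GABARAP and GABARAPL2 fell by 0.72 and 0.55. The lysosome list had 2 higher without YB-0158 library 2, 13 higher with GC content and length corrected and 4 lower without YB-0158 library 2.

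The unfolded protein response list held rises and falls. Of 31 genes 14 were higher and 9 lower. The sensor ERN1 (IRE1) stood at 17.8 and 12.6 CPM with DMSO and 62.9 and 63.0 CPM with YB-0158 (log2 fold change 2.05, SE 0.14, adjusted p = 3e-05), ATF6 rose by 1.21 (corrected for GC content and length 0.62), and HERPUD1, of ER-associated degradation, stood at 60.3 and 61.4 CPM with DMSO and 144 and 145 CPM with YB-0158 (log2 fold change 1.25, SE 0.07, adjusted p = 1.4e-05). XBP1 rose by 0.60, while the sensor EIF2AK3, given above, was not called. Among chaperones and folding enzymes of the lumen, BiP (HSPA5) was not called (0.15, adjusted p = 0.11), CALR fell, SDF2L1 fell by 0.93 (corrected -0.32), and the disulfide isomerase PDIA4 fell by 0.93, with summed reads at 0.39 of the authors' deposited mean. CLGN, a chaperone of the endoplasmic reticulum outside that list, rose by 3.18. In the cytosol, 3 of 24 heat shock genes were higher and 7 lower, with HSPH1 (HSP110) at 212 and 189 CPM with DMSO and 450.1 and 514 CPM with YB-0158 (log2 fold change 1.26, SE 0.10, adjusted p = 5.4e-05) and HSPB1 (HSP27) lower by 0.92 (corrected -0.31). HSP90AA1 and DNAJB1, classical heat shock targets, were not called (0.21 and -0.15, adjusted p = 0.061 and 0.095). Proteasome genes were lower in 17 of 35, and 1, their regulator NFE2L1 (0.46), was higher (median -0.20, corrected -0.08 with 5 higher and 10 lower). With GC content and length corrected, 7 heat shock genes were higher and 4 lower, with a median of -0.02 against 0.05 uncorrected. Fewer heat shock genes were called lower without either YB-0158 library. The proteasome list had 11 lower without DMSO library 2, 5 lower without YB-0158 library 1 and 6 lower without YB-0158 library 2.

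Redox and metal genes moved both ways. Of 35 NRF2, glutathione and thioredoxin genes 13 were higher and 10 lower. Thioredoxin reductase TXNRD1 stood at 328 and 280.2 CPM with DMSO and 550.3 and 602 CPM with YB-0158 (log2 fold change 0.92, SE 0.09, adjusted p = 0.00017), and of the classical NRF2 targets NQO1 fell by 0.51 and HMOX1 was not called (-0.23, adjusted p = 0.15). The NRF2 motif TGACNNNGC was found in 11 of 26 promoters of the list (42.3%) and in 16.1% of all genes. The NRF2 list had 6 lower with GC content and length corrected. Ferritin heavy chain (FTH1) stood at 3231 and 4035 CPM with DMSO and 5806 and 5859 CPM with YB-0158 (log2 fold change 0.68, SE 0.11, adjusted p = 0.0015), and the iron reductase STEAP4 rose by 1.13. The metallothionein MT1E fell by 0.87, in a family of near-identical copies. Ornithine decarboxylase ODC1, the entry to polyamine synthesis, rose by 0.64, and the antizyme OAZ2 and the translation factor EIF5A fell by 0.75 and 0.58. MYC stood at 249 and 237 CPM with DMSO and 194 and 194 CPM with YB-0158 (log2 fold change -0.32, SE 0.09, adjusted p = 0.021), a call that ended without either YB-0158 library and with GC content and length corrected (-0.19), its antagonist MXD1 rose by 0.96, and the relatives MXD3 and MXD4 fell by 0.98 and 0.93.

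Transcript usage is given as each transcript's share of its gene's summed TPM, an abundance estimate scaled for transcript length. Tested on estimated counts, usage changed in 182 of 11133 genes (1.63%), 165 of them with a shift of at least 10 percentage points. Without DMSO library 1 the count was 717, and without DMSO library 2 it was 300. PAIP1, a partner of the poly(A)-binding protein, had transcript PAIP1-203 at 83.8% and 86.5% with DMSO and at 59.1% and 62.0% with YB-0158. Its transcript PAIP1-207 went from 0% in both DMSO libraries to 26.7% and 25.2% with YB-0158 (adjusted p = 2.2e-08). PHKA1, a phosphorylase kinase subunit, had PHKA1-205 at 30.8% and 41.6% with DMSO and at 0% with YB-0158, while PHKA1-201 stood at 0% with DMSO and at 26.5% and 28.6% with YB-0158 (adjusted p = 2.2e-08). RNF41, a ubiquitin ligase, had RNF41-201 at 21.6% and 23.2% with DMSO and at 11.3% and 10.4% with YB-0158 (adjusted p = 4.7e-12), a call that ended with the 4 libraries of YB-0158 and DMSO alone (adjusted p = 1), where the other 3 named here were called. The tetraspanin gene CD82 had CD82-206 at 0% with DMSO and at 15.5% and 11.4% with YB-0158 (adjusted p = 6.1e-13). Salmon divides reads among similar transcripts by a model, and a share of 0% is its estimate rather than an observed absence. The test did not include that model's own uncertainty. For 5 genes with splice forms linked to SAM68 or to colorectal cancer, KHDRBS1, CD44, BCL2L1, CCND1 and PKM, the adjusted p was 1. CD44 was called with filterByExpr as the filter (adjusted p = 0.0068) and CCND1 without DMSO library 1 (adjusted p = 0.0044). CCND1-201 stood at 72.8% and 99.6% with DMSO and at 60.2% and 67.3% with YB-0158, with the DMSO libraries further apart than the groups.

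**Figure D3:**
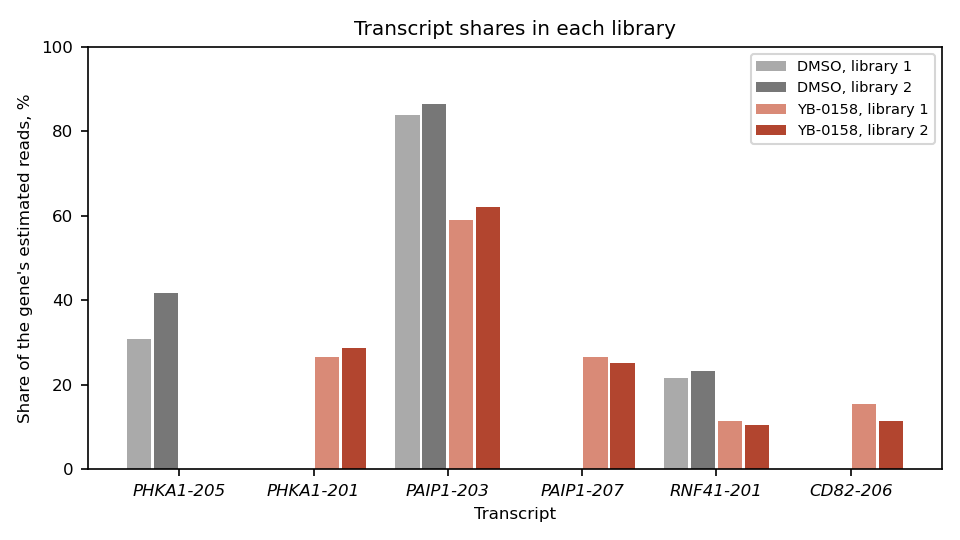
Share of a gene's summed TPM, in percent, held by 6 transcripts of 4 genes with changed usage, with 1 bar per library (grey for DMSO, red for YB-0158). Where the axis label reads estimated reads, the values are TPM. PHKA1-205 stands at 30.8% and 41.6% in DMSO with no bar in YB-0158, and PAIP1-203 falls from 83.8% and 86.5% to 59.1% and 62.0%.

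Set directly against ICG-001, YB-0158 differed in 1 gene of 16449 (0.00608%), TXNIP. TXNIP stood at 273 ± 3.14 CPM with YB-0158 and 149.7 ± 13.9 CPM with ICG-001 (mean ± SD, 2 libraries each), a log2 difference of 0.87 (95% interval 0.69 to 1.04, adjusted p = 0.036). The call ended on leaving out any 1 of these 4 libraries, with the difference between 0.77 and 0.96 and adjusted p between 0.0743 and 0.397. At an unadjusted p under 0.05 there were 918 genes, and DESeq2's Wald test called 27. DMSO libraries enter the shared spread, and 19 genes were called without DMSO library 1 and 35 without DMSO library 2. A p above the threshold does not show that the compounds act alike: the 95% intervals of the log2 difference had a median width of 0.59. For CHAC1 the difference was -0.16 (95% interval -0.42 to 0.11, adjusted p = 0.92), for INSIG1 -0.13 (95% interval -0.38 to 0.12, adjusted p = 0.94) and for MCM2 -0.01 (95% interval -0.16 to 0.13, adjusted p = 1). Differences further from 0 that did not pass the adjustment were 0.62 for KRT17, 0.49 for SCEL and -0.64 for RASL11A (adjusted p = 0.49, 0.44 and 0.45), and all 3 were called by DESeq2's Wald test, by limma voom, with GC content and length corrected and with no low-count filter. The mRNAs of mitochondrial DNA had a median difference of -0.34, with 0 of 13 called, 9 called lower with no low-count filter, 2 by DESeq2's Wald test and 1 by limma voom. The doses were 0.3 µM and 10 µM, so compound and dose cannot be told apart.

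Against CWP232228 at 1.5 µM, YB-0158 differed in 1279 genes (7.78%), with 586 higher (3.56%) and 693 lower (4.21%). The count was 88 without YB-0158 library 1, 334 without YB-0158 library 2, 225 without CWP232228 library 1 and 92 without CWP232228 library 2. Leaving out a library outside the pair, which enters through the shared spread, gave 3228 without DMSO library 1, 3306 without DMSO library 2, and 714 and 715 without ICG-001 library 1 and 2. Of 33 genes of the ATF4 list, 24 were higher with YB-0158 and 0 lower (median log2 difference 0.64), and 10, 17, 15 and 9 were higher without the 4 libraries of the pair in the same order. CHAC1 stood at 75.6 ± 3.29 CPM against 29.01 ± 5.05 CPM, a difference of 1.38 (95% interval 1.11 to 1.66, adjusted p = 0.0013), and TRIB3 at 425 ± 7.37 against 166 ± 21.4 CPM, a difference of 1.35 (95% interval 1.12 to 1.59, adjusted p = 0.001). ASNS was not called at 0.24 (95% interval 0.04 to 0.44, adjusted p = 0.14), nor PHGDH at 0.11 (95% interval -0.07 to 0.29, adjusted p = 0.44). ASNS was called higher with no low-count filter, by limma voom and with GC content and length corrected (0.32), but not by DESeq2's Wald test. PHGDH was called in none of these. Among the genes with the largest differences upward were PRSS2 (2.05), CLGN (2.09), UNC5B (1.73) and the inositol trisphosphate kinase ITPKA (1.60), and downward the alcohol dehydrogenase ADH6 (-1.53), RASL11A (-1.44) and OR51E1 (-1.37, not called without YB-0158 library 1).

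Cell cycle genes stood lower with YB-0158 than with CWP232228. Of 46 G1/S genes 40 were lower (median -0.69), of 46 G2/M genes 40 (median -0.61) and of 25 DNA repair genes 16 (median -0.58), with 0 higher in each. In the order of these lists, the genes called lower were 7, 3 and 0 without YB-0158 library 1, 29, 23 and 9 without YB-0158 library 2, 21, 8 and 4 without CWP232228 library 1 and 10, 4 and 2 without CWP232228 library 2, while the medians lay between -0.74 and -0.50 in each case. MCM2 stood at 147 ± 5.57 CPM with YB-0158 and 226 ± 3.69 CPM with CWP232228, a difference of -0.61 (95% interval -0.76 to -0.47, adjusted p = 0.0023), and CCNB1 at 80.5 ± 6.98 and 123 ± 0.355 CPM, a difference of -0.61 (95% interval -0.80 to -0.42, adjusted p = 0.0049). The MCM2 call ended without YB-0158 library 1, and the CCNB1 call without any of the 4 libraries but YB-0158 library 2. Cholesterol genes were lower in 11 of 26, with INSIG1 at -0.94 (95% interval -1.19 to -0.69, adjusted p = 0.003), a call that ended without YB-0158 library 1 and without CWP232228 library 2. Keratin and envelope genes were higher in 8 of 17, with KRT17 at 1.34 (95% interval 1.06 to 1.63, adjusted p = 0.0017) and SCEL at 1.14 (95% interval 0.93 to 1.36, adjusted p = 0.001). With the 4 libraries left out in the order above, the cholesterol count was 1, 3, 3 and 0 and the keratin count 3, 5, 4 and 3. The mRNAs of mitochondrial DNA, of which 1 was lower and 0 higher, stood at a median difference of -0.16. The cytosolic ribosomal protein genes, with 0 of 76 called, stood at 0.07. With GC content and length corrected their median was 0.02, with 5 higher and 5 lower. Compound and dose again cannot be told apart, and replicate 2 of CWP232228 is labelled 49 h.

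**Figure D4:**
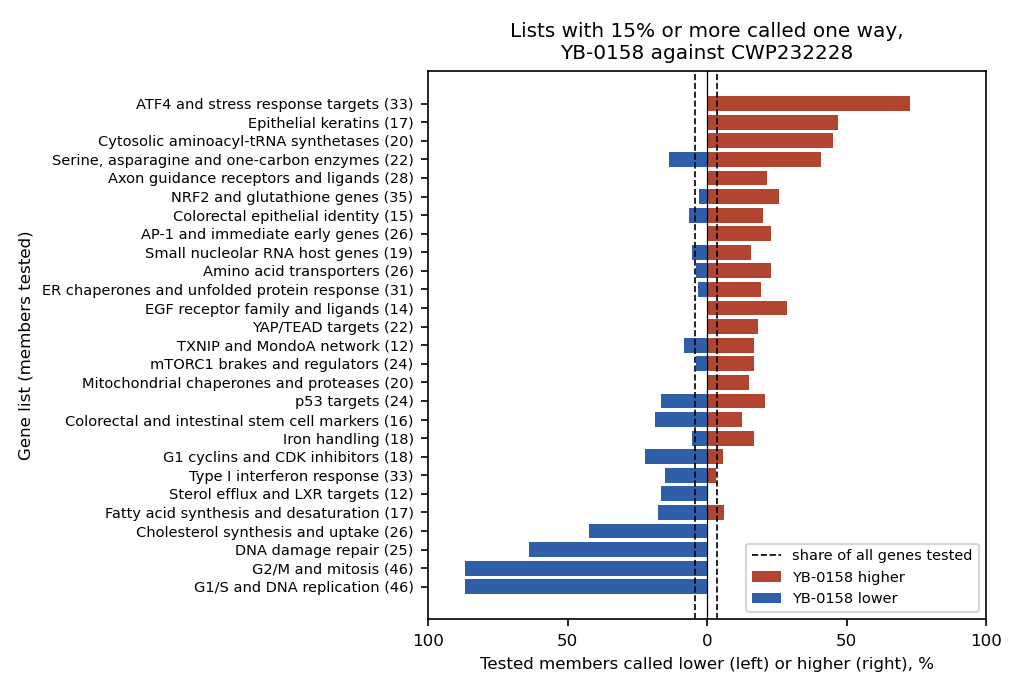
Share of tested members called higher (right) or lower (left) with YB-0158 against CWP232228, for gene lists with at least 12 tested members and 15% or more called one way, with dashed lines at the shares over all genes tested (3.56% higher and 4.21% lower). The G1/S and G2/M lists stand lowest with 40 and 40 of 46 members lower, and the ATF4 list highest with 24 of 33 higher.

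**Figure D5:**
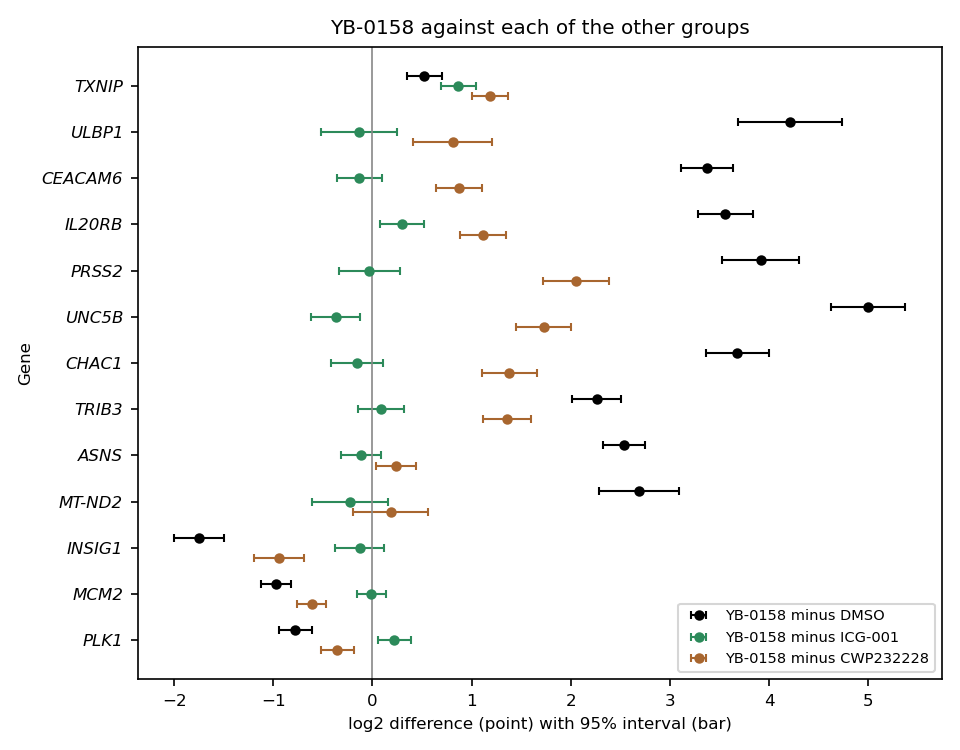
Log2 difference (point) with its 95% interval (bar) between YB-0158 and DMSO (black), ICG-001 (green) or CWP232228 (brown) for 13 genes named in the text. TXNIP is the gene whose green interval belongs to a called difference (0.87), and for CHAC1 the black, green and brown points stand at 3.68, -0.16 and 1.38.

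The authors' deposited table for YB-0158 against DMSO lists 18937 genes, 5590 of them with an adjusted p under 0.05 (2812 higher and 2778 lower). Of 5534 of these genes tested here, 4841 were also called here, 4834 with the same sign. The log2 fold changes in the authors' deposited table were 3.6 for CHAC1, 4.97 for UNC5B, 4.16 for ULBP1 and 0.53 for TXNIP. Of 220 genes named here as called that have an adjusted p in the authors' deposited table, 208 were called there with the same sign and 12 were not: POLR1A (0.04 there), ACSS2 (-0.23), SLC6A6 (-0.21), ACSL1 (-0.33), CDH1 (0.16), FYN (0.40), RAD54L (-0.43), CEACAM7 (0.64), LGR5 (-0.26), ATF5 (-0.21), CTNNB1 (0.09) and VARS1 (-0.20). The reverse held for 5 genes called in the authors' deposited table and not here, SLC2A1 (-0.64 there), EIF2AK2 (0.71), EP300 (0.86), HSPD1 (0.33) and MCL1 (0.33).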

How the data were processed

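RNA-seq of 8 HT29 libraries was used as deposited. Per the submitters' processing notes, fastp, Salmon 1.3.0 and DESeq2 were run on GRCh38, with no order given. The deposited files hold estimated counts (NumReads) and TPM per transcript; the authors' deposited tables also hold a mean normalised signal, a log2 fold change and a p-value per gene. Estimated counts were summed per gene over the 89.5% of transcripts that matched GENCODE 29 (1.54% to 1.854% of reads did not match) and rounded. TPM served for the transcript shares and otherwise only as a check. Intervals cover counting error and library spread, not mapping error. Genes passing filterByExpr were tested with edgeR 4.0.16 (robust quasi-likelihood, TMM scaling, 4 groups of 2 libraries, 4 residual degrees of freedom), with Benjamini-Hochberg adjustment and a threshold of 0.05. CPM are scaled by TMM, except summed gene lists and the cell type markers given beside their sums, which use library totals. Alternatives used limma 3.58.1, DESeq2 1.42.0 and mgcv 1.9.3 (GC content and length) in R 4.3.3. The gene test was checked on simulated counts that had the same spread in every group and no GC trend. That check therefore does not cover the wider DMSO spread or the GC trend of these libraries. Transcript usage was tested with edgeR's diffSpliceDGE on transcripts with a mean share of at least 5%. The 67 gene lists and the rule for named genes (the 12 largest rises and falls, reference genes of each list, and up to 3 members per direction with the smallest p) were chosen with earlier results of these data known. Some genes that the rule names are not reported here.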

Additional observations from a re-analysis of the deposited data

How the results depend on the processing

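With 2 libraries per group and 4 residual degrees of freedom, precision rests on few libraries, and a lone library left in a group is assumed to vary like the others. Of 7209 genes called against DMSO, 7132 were called in the same direction with DESeq2's size factors, 6143 by DESeq2's Wald test, 5400 by limma voom with a spread per group, 5092 with the 4 libraries alone and 5007 with GC content and length corrected. Leaving out 1 library gave 4237 to 8846 calls, 2025 to 4668 higher and 2212 to 4178 lower. Against ICG-001 the counts were 268 with no low-count filter, 27 by DESeq2's Wald test, 41 by limma voom, 20 with GC content and length corrected, 0 to 2 on leaving out 1 of the 4 libraries compared, 0 without either CWP232228 library, and 19 and 35 without DMSO library 1 and 2, which enter the shared spread. Against CWP232228 they were 2378 with no filter, 3507 by limma voom, 2975 with GC content and length corrected, 88 to 334 on leaving out 1 of the 4 libraries compared, and 714 to 3306 on leaving out another. Transcript usage was called in 366 genes with filterByExpr alone and in 159 to 717 on leaving out 1 library. The causes of these differences were not tested.

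The replicate numbers share only a number in the labels. DMSO and YB-0158 replicates did not deviate together (correlation of replicate differences -0.25). YB-0158 differences correlated at 0.48 with those of ICG-001 and 0.21 with those of CWP232228. The differences also followed GC content, with Spearman rho of -0.60 for DMSO, 0.54 for YB-0158, 0.75 for ICG-001 and 0.57 for CWP232228. The part of GC content in these correlations was not tested. With a replicate block 6645 genes were called against DMSO, 0 against ICG-001 (781 at an unadjusted p under 0.05, edgeR), 814 against CWP232228 and 150 for usage. The replicate block with GC content and length corrected gave 6837, 13 and 2580. With the DMSO numbers crossed, a pairing chosen after the data were seen, 8136 genes were called.

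With GC content and length corrected, without and with the replicate block, 4 named genes called in either fit changed sign: ATF5 to 0.13 and 0.13, BCL2L1 to 0.18 and 0.18, EIF2AK2 to -0.19 and -0.19, and EIF2AK4 to -0.25 and -0.25. With the correction alone 9 others changed sign with no call in either fit. The correction also ended the calls of ASCL2 (-0.43), CTNNB1 (0.10), FARSA (-0.21), H2BC12 (-0.36), MICA (-0.21), MYC (-0.19), SDF2L1 (-0.32), SLC16A1 (0.05) and VARS1 (-0.03). Limma voom with a spread per group ended those of ATF5, CEACAM7, CEBPG, EIF4EP2, IFNAR2-IL10RB and MYC, among the named genes whose gene-level call is given. Leaving out ICG-001 or CWP232228 libraries was also added after the data were seen.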
